A study of Mus musculus with 6 samples.

Results

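Collagen genes other than type IV were 38 of the 31265 genes in the expression table of redox-sorted cells from mouse embryoid bodies. They were chosen by gene symbol alone, as every symbol made of Col, a type number, the letter a and a chain number, after the 6 type IV chains among the 44 such symbols had been set aside. No measured value entered the choice. Of the 38 genes, 11 reached a mean of at least 1 FPKM (a read level corrected for transcript length and library size) over the 6 libraries. The other 27 stayed below that mean, and 2 of these, Col6a6 and Col19a1, were listed at 0 in every library.

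Oxidized cells were the 10% with the most oxidized nuclear sensor, and reduced cells the 10% with the most reduced one, each taken at day 5 from populations A, B and C, so each group has 3 libraries. All cells were E14Tg2a, a mouse embryonic stem cell line labelled WT, and all expressed Grx1-roGFP2, a fluorescent reporter of the glutathione redox state, in the nucleus. Both groups had grown with serum, LIF and 2i, had formed embryoid bodies in hanging drops without LIF and 2i, and had passed the same propidium iodide gate for live cells. The labels do not say what separates the populations from each other, so every p-value reflects only how far they spread, which may be technical. The cells started from a clonal line, per the series' design text. Wherever 3 values are given for a group, they stand in the order of populations A, B and C. The comparison asks whether cells in different nuclear redox states at day 5 express different genes.

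A collagen is built from 3 chains that wind into a triple helix, and each chain carries a repeat in which glycine recurs at a fixed step. Fibrillar chains (types I, II, III, V, XI, XXIV and XXVII) assemble into the cross-striated fibrils of connective tissue and cartilage. FACIT chains (such as types IX, XII and XIV) sit on the fibril surface, type VI forms beaded filaments, types VIII and X form networks, and types XIII, XVII, XXIII and XXV span the cell membrane. Types XV and XVIII are multiplexins of basement membrane zones, and the end fragment of type XVIII is known as endostatin. In the early embryo, mesenchyme makes chains I, III and V, while chains II, IX and XI are known from cartilage and notochord.

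The repeat can be read in the coding sequence as a codon that starts with GG, for glycine, followed by 2 others, over and over. Stretches from the longest uninterrupted run are shown for the gene that passed the test below, for the most abundant fibrillar chain, for the chain with the shortest run and for the most abundant gene of all. Capitals mark the GG of each glycine codon, and each stretch covers 10 triplets of codons, 5′ to 3′, from GENCODE vM21 transcripts (GRCm38).
Col3a1: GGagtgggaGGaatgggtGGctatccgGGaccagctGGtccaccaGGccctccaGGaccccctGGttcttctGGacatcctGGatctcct
Col1a1: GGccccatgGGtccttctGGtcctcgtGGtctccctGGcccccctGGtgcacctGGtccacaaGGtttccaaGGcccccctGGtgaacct
Col26a1: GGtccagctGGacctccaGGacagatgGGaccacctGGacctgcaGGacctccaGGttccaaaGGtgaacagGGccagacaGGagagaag
Col18a1: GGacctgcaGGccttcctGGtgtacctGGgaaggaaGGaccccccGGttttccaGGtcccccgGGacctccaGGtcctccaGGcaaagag
These stretches start at codon 164 of Col3a1, codon 168 of Col1a1, codon 199 of Col26a1 and codon 953 of Col18a1, counted from the start codon. In the longest annotated coding transcript, the longest run held 344 triplets in Col3a1 (chr1:45311538-45349706, plus strand), 338 in Col1a1 (chr11:94936224-94953042, plus strand), 23 in Col26a1 (chr5:136741759-136883209, minus strand) and 30 in Col18a1 (chr10:77052178-77166548, minus strand). Among the 11 fibrillar genes, 9 had a longest run of 337 to 344 triplets and the other two, Col27a1 and Col24a1, had 217 and 216. The longest run of the remaining genes was between 23 and 113 triplets, with 113 reached by Col9a1, Col9a2, Col9a3 and Col22a1. Col18a1 broke its repeat into 17 runs of at least 3 triplets. Despite the shared repeat, at most 3.53% of any gene's stretches of 50 bases occurred in another gene, a share reached by Col6a6.

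**Figure D1:**
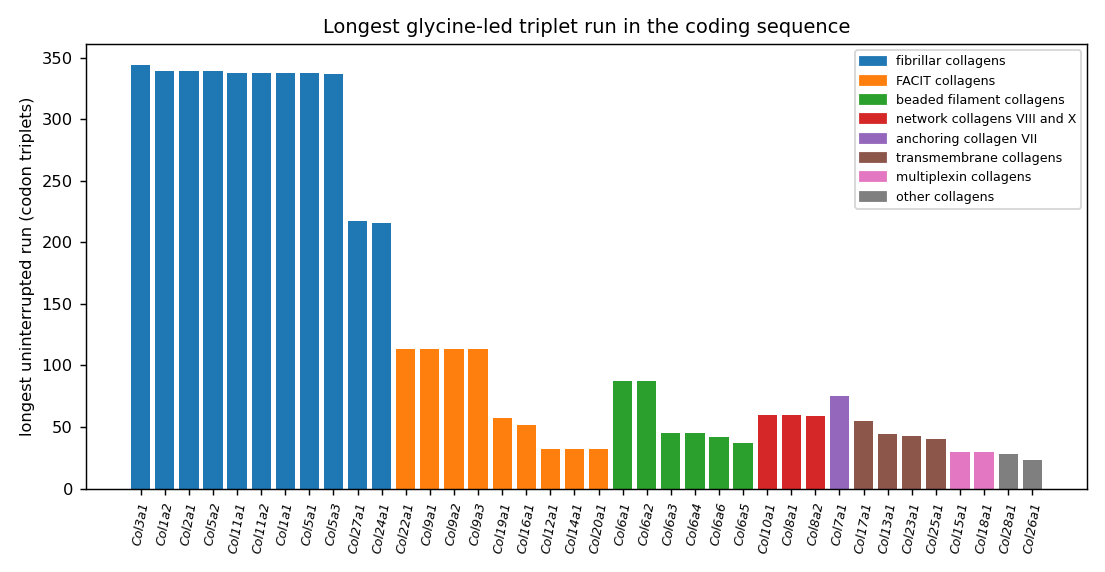
Longest uninterrupted run of glycine-led codon triplets (y axis, number of triplets) in the longest coding transcript of each of the 38 genes, coloured by structural class. The 9 tallest bars are fibrillar genes at 337 to 344 triplets, and no gene outside that class passes 113.

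The libraries had an estimated depth of 1.58e+07, 1.52e+07 and 1.18e+07 fragments for the oxidized libraries, against 1.79e+07, 1.70e+07 and 1.25e+07 for the reduced ones. Oxidized A and B stood apart from the other 4 libraries: CT010467, a ribosomal RNA locus, read 1410 and 1736 FPKM there, while oxidized C had 43820 FPKM and the reduced libraries had 34120 to 36590 FPKM. The mitochondrial transcript mt-Co3 reached 2710 and 1525 FPKM in that pair, and 112 to 199 FPKM in the other 4. Results that these libraries touch are also given below without oxidized A and B, or without oxidized C. The pluripotency marker Pou5f1 was at 132, 151 and 73.0 FPKM in the oxidized libraries, against 199, 180 and 168 FPKM in the reduced ones, so stem cell transcripts were present in every library. In these bulk libraries, fewer cells of a type and less RNA per cell cannot be told apart.

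Type III collagen was higher in oxidized cells, and it was the 1 collagen gene of the 11 tested that passed. Col3a1 encodes the single chain of type III collagen, which forms thin fibrils in loose connective tissue. It was at 7.11, 11.9 and 13.4 FPKM in the oxidized libraries, against 2.45, 1.68 and 3.69 FPKM in the reduced ones. Every oxidized library lay above every reduced one, and the lowest oxidized value, that of population A, was above the highest reduced value, that of population C. The means were 10.8 ± 3.28 FPKM in oxidized cells and 2.61 ± 1.02 FPKM in reduced cells (SD, n = 3 each), and the difference on the log2(FPKM + 1) scale was 1.71 with an SE of 0.27 (limma, adjusted p = 0.0380). Within populations A, B and C the log2 difference was 1.23, 2.27 and 1.61. In the fit with the population as a block the adjusted p of Col3a1 was 0.0613. Over the alternatives run, its log2 difference ranged between 1.51 and 2.03 and its adjusted p between 0.0107 and 0.198. Without oxidized A and B the difference was 2.03 (adjusted p = 0.0941), and without oxidized C it was 1.54 (adjusted p = 0.0107). The adjusted p of Col3a1 was also above the threshold when 1 other library was left out: 0.0703 without oxidized A, 0.153 without oxidized B, 0.184 without reduced A and 0.186 without reduced B. It was 0.198 with no filter on mean FPKM. The reads behind these values came to roughly 625, 1000 and 879 fragments in the oxidized libraries, against 244, 159 and 257 fragments in the reduced ones, taking the longest coding transcript as the length. A microRNA gene annotated inside it, Gm47302, covers 1.44% of its exonic bases.

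Over all 12191 genes tested, calls in favour of oxidized cells made up 0.517% and calls in favour of reduced cells 0.279%. The collagen count of 1 gene is too small to be read as a share. All 11 collagen estimates were positive, as were 59.3% of those of all genes tested. Their median was 0.72 on the log2(FPKM + 1) scale, where that of all genes tested was 0.08. At an unadjusted p under 0.05 the limma fit held 6 of the 11, all higher in oxidized cells, and 0 lower, where 13.5% of all genes tested were higher and 5.93% lower at that p. In the fit with the population as a block 0 of the 11 were called, and 8 had an unadjusted p under 0.05, as had 19.2% of all genes tested. For 6 of the 11 the mean of reduced cells was below 1 FPKM, so these passed the filter on mean FPKM through the oxidized libraries, and neither the count nor the median supports a general statement. Without oxidized C, 5 of the 11 were called higher, with 7.25% of all genes called higher in that fit. These were Col3a1, Col2a1 (adjusted p = 0.0117), Col9a1 (0.0230), Col26a1 (0.0372) and Col23a1 (0.0477). The fit without oxidized C keeps only oxidized A and B, which stood apart in CT010467 and mt-Co3. Its calls and that difference between libraries cannot be told apart. Without oxidized A and B, 0 of the 11 were called by limma, and 8 had an unadjusted p under 0.05, as had 13.3% of all genes tested.

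**Figure D2:**
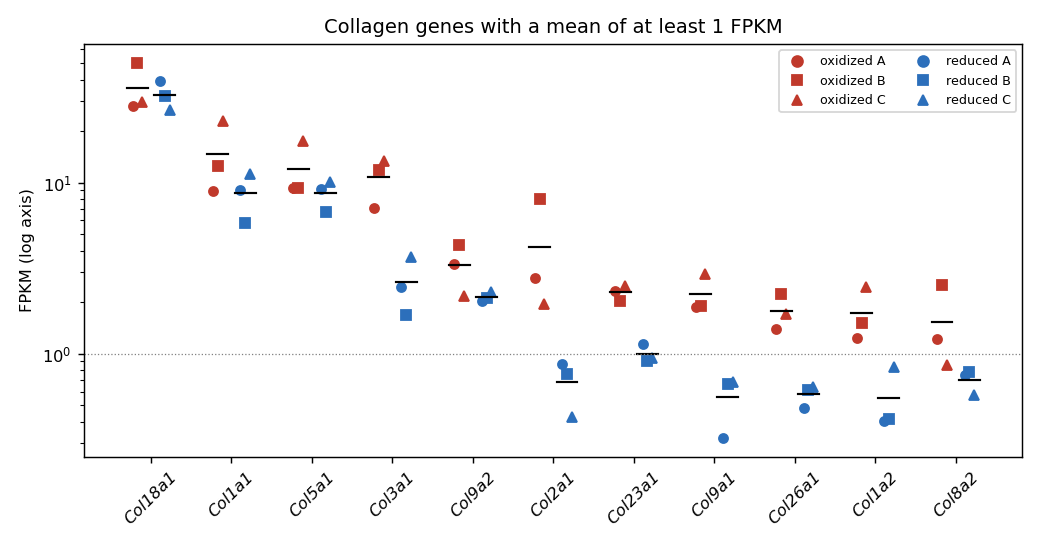
FPKM (log axis) of the 11 tested collagen genes, one point per library, with oxidized libraries left of reduced ones and a black bar at each group's mean. Groups do not overlap for Col3a1, Col2a1, Col23a1, Col9a1, Col26a1, Col1a2 and Col8a2, and they overlap for Col18a1, Col1a1, Col5a1 and Col9a2.

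The other fibrillar chains differed from each other in which population was highest. Col1a1 encodes the chain that occurs as a pair in type I collagen, the main collagen of bone, tendon and skin. It was at 8.88, 12.4 and 22.9 FPKM in the oxidized libraries, against 9.06, 5.81 and 11.2 FPKM in the reduced ones. The groups overlapped, since oxidized A lay below reduced A, and the log2 difference was 0.64 with an SE of 0.33 (limma, adjusted p = 0.325). It was 0.29 without oxidized C, 0.40 without reduced B and 1.34 without oxidized A and B. Its partner chain Col1a2 was at 1.24, 1.51 and 2.47 FPKM in the oxidized libraries, against 0.406, 0.413 and 0.833 FPKM in the reduced ones. These groups did not overlap, and the difference of 0.81 (SE 0.22) did not pass (limma, adjusted p = 0.117). Col5a1, a chain of type V collagen that is known to start fibrils and set their diameter, was at 9.29, 9.27 and 17.4 FPKM in the oxidized libraries, against 9.11, 6.75 and 10.02 FPKM in the reduced ones. Populations A and B gave oxidized values close to those of reduced A and C, and the log2 difference of 0.39 (SE 0.26) did not pass (limma, adjusted p = 0.428). It was 0.11 without oxidized C, 0.24 without reduced B and 0.95 without oxidized A and B. The exons of Col5a1 overlap those of the antisense gene 2810430I11Rik over 99 bases, and whether counting used the strand is not known. In Col1a1, Col1a2, Col3a1 and Col5a1 population C held the highest value of both groups.

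Col2a1, the single chain of type II collagen of cartilage, was highest in oxidized B instead. It was at 2.75, 7.98 and 1.95 FPKM in the oxidized libraries, against 0.868, 0.757 and 0.424 FPKM in the reduced ones. The groups did not overlap, but oxidized B alone was more than 2 times either of the other oxidized libraries, and the log2 difference of 1.47 (SE 0.37) did not pass (limma, adjusted p = 0.109). Without oxidized A and B the log2 difference of Col2a1 was 0.82 (adjusted p = 0.240). The other fibrillar genes were low. Col11a1, a type XI chain of cartilage fibrils, was at 0.433, 0.563 and 0.364 FPKM in the oxidized libraries, against 0.112, 0.187 and 0.239 FPKM in the reduced ones. Col5a2, Col27a1, Col11a2, Col24a1 and Col5a3 stayed below 0.5 FPKM in every library. Summed over the 11 fibrillar genes, the level was 30.1, 44.4 and 59.0 FPKM in the oxidized libraries, against 22.2, 15.9 and 26.9 FPKM in the reduced ones.

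Type IX collagen, a FACIT that coats cartilage fibrils, is assembled from the products of Col9a1, Col9a2 and Col9a3, and their values differed in pattern. Col9a1 was at 1.86, 1.90 and 2.91 FPKM in the oxidized libraries, against 0.322, 0.661 and 0.680 FPKM in the reduced ones. Its groups did not overlap, and the log2 difference of 1.05 (SE 0.20) came with an adjusted p of 0.0590 in limma. About 113, 111 and 131 fragments stood behind Col9a1 in the oxidized libraries, against 22.1, 43.1 and 32.6 fragments in the reduced ones. Col9a2 was at 3.32, 4.33 and 2.18 FPKM in the oxidized libraries, against 2.04, 2.13 and 2.28 FPKM in the reduced ones. The groups overlapped because oxidized C lay below reduced C, and the log2 difference was 0.41 (SE 0.21, limma, adjusted p = 0.316). It was 0.24 without oxidized B and 0.01 without oxidized A and B (adjusted p = 0.985). Col9a3 was at 0.470, 0.782 and 0.538 FPKM in the oxidized libraries, against 0.402, 0.830 and 0.528 FPKM in the reduced ones, with means of 0.597 and 0.587 FPKM. Its exons overlap those of Tcfl5 on the other strand over 6.07% of their length, so its value is uncertain. Col14a1, a FACIT of embryonic connective tissue, was at 1.13, 1.16 and 1.69 FPKM in the oxidized libraries, against 0.179, 0.393 and 0.378 FPKM in the reduced ones, without overlap. Its mean of 0.822 FPKM kept it out of the filtered test, and without the filter its adjusted p was 0.225. Col22a1, Col16a1, Col20a1, Col12a1 and Col19a1 stayed below 0.5 FPKM in every library.

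Both membrane-spanning collagens above trace levels had groups that did not overlap. Col23a1 was at 2.33, 2.04 and 2.49 FPKM in the oxidized libraries, against 1.14, 0.900 and 0.941 FPKM in the reduced ones. Its 3 oxidized libraries lay close together, with an SD of 0.226 FPKM, and its log2 difference was 0.72 with an SE of 0.16 (limma, adjusted p = 0.0795). Col13a1, a transmembrane collagen found at cell junctions and neuromuscular synapses, was at 1.22, 0.959 and 1.29 FPKM in the oxidized libraries, against 0.508, 0.281 and 0.355 FPKM in the reduced ones. It was outside the filtered test, and its adjusted p without the filter was 0.245. Col25a1 and Col17a1 stayed below 0.2 FPKM. Col26a1, which has a collagen repeat of only 23 triplets at its longest, was at 1.40, 2.22 and 1.70 FPKM in the oxidized libraries, against 0.481, 0.616 and 0.636 FPKM in the reduced ones. The groups of Col26a1 did not overlap, and its log2 difference of 0.81 (SE 0.18) did not pass (limma, adjusted p = 0.0780).

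Col18a1, the basement membrane collagen that yields endostatin, was the most abundant of the 38 genes and had the smallest difference of the 11 tested. It was at 28.1, 50.1 and 29.5 FPKM in the oxidized libraries, against 39.2, 32.2 and 26.5 FPKM in the reduced ones. Oxidized A was below reduced A, while oxidized B was the highest library of all. The log2 difference was 0.10 with an SE of 0.25 (limma, adjusted p = 0.842), and it was 0.25 without oxidized A, 0.22 without oxidized C, 0.24 without reduced A, -0.16 without oxidized B, -0.03 without reduced C and -0.12 without oxidized A and B. Col18a1 held 38.1, 44.0 and 28.1% of the summed FPKM of the 38 genes in the oxidized libraries, against 56.7, 57.8 and 42.9% in the reduced ones. The sum of all 38 was 73.7, 114 and 105 FPKM in the oxidized libraries, against 69.1, 55.7 and 61.7 FPKM in the reduced ones. Without Col18a1 it was 45.6, 63.9 and 75.3 FPKM in the oxidized libraries, against 29.9, 23.5 and 35.2 FPKM in the reduced ones. The other multiplexin, Col15a1, was above 0 only in reduced C, at 0.00803 FPKM.

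Among network and filament collagens, Col8a2 of type VIII, a collagen of endothelial and corneal matrices, was the last gene inside the threshold of 1 FPKM, with a mean of 1.12 FPKM. It was at 1.22, 2.52 and 0.864 FPKM in the oxidized libraries, against 0.751, 0.776 and 0.574 FPKM in the reduced ones, and its log2 difference of 0.52 (SE 0.24) did not pass (limma, adjusted p = 0.278). Without oxidized B it was 0.26, and without oxidized A and B it was 0.13. Col6a1, a type VI chain, was the first gene outside it, with a mean of 0.997 FPKM. It was at 1.496, 1.68 and 1.36 FPKM in the oxidized libraries, against 0.515, 0.118 and 0.808 FPKM in the reduced ones, without overlap, and its adjusted p without the filter was 0.289. Col6a2 was at 0.331, 0.723 and 0.101 FPKM in the oxidized libraries, against 0.191, 0.0987 and 0.199 FPKM in the reduced ones, with overlap. The other type VI chains Col6a3, Col6a5 and Col6a4, together with Col8a1 and Col10a1, stayed below 0.2 FPKM. Col28a1 was above 0 only in oxidized A, at 0.0623 FPKM, or an estimated 4.16 fragments.

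**Figure D3:**
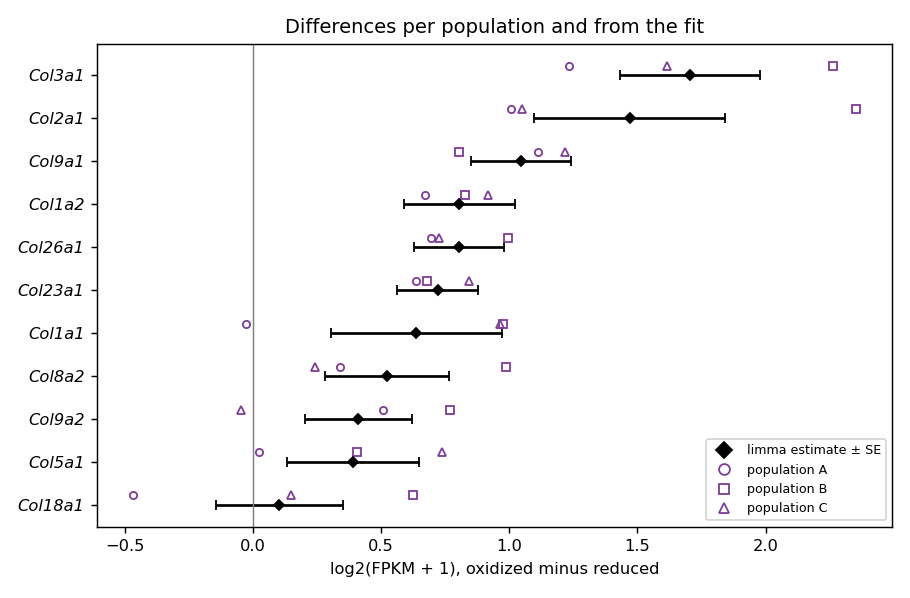
Difference in log2(FPKM + 1), oxidized minus reduced (x axis), for the 11 tested collagen genes. Diamonds with bars are the limma estimate ± SE over 3 oxidized and 3 reduced libraries, and open symbols are the differences within populations A, B and C. Col3a1 is largest at 1.71, and in Col18a1, Col1a1 and Col9a2 one population lies below 0.

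Counted over populations, 8 of the 11 tested genes were higher in oxidized than in reduced cells in all of A, B and C, as were 26.9% of all genes tested. The exceptions were Col18a1 and Col1a1 in population A and Col9a2 in population C. Among the 8 are the 6 genes with a reduced mean below 1 FPKM, which were tested only because of their oxidized libraries. The count of 8 is therefore not to be read against that background. Of the 27 genes below 1 FPKM, 9 were higher in oxidized cells in all 3 populations, as were 11.3% of all genes below that mean and above 0 in a library. The 27 include the 2 genes at 0 everywhere, which that background leaves out. A gene at 0 in both libraries of a population cannot be counted as higher in all 3, so the count and the share are not alike. The reverse held for Col7a1 and Col20a1, with oxidized values below reduced ones in every population. Col7a1, the chain of the anchoring fibrils under the epidermis, was at 0.0779, 0.0818 and 0.120 FPKM in the oxidized libraries, against 0.253, 0.167 and 0.196 FPKM in the reduced ones. It was the 1 gene of the 38 whose oxidized libraries all lay below the reduced ones, on about 11.3, 11.4 and 13.1 fragments against 41.7, 26.2 and 22.5, and its adjusted p without the filter was 0.346. How many of all genes were lower in every population, or lower without overlap, was not counted. Whether these collagen counts are few or many is therefore not known.

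Groups that did not overlap, with oxidized cells higher, were found for 7 of the 11 tested genes, where 16.2% of all tested genes had them. Of these 7, all but Col3a1 had a reduced mean below 1 FPKM and so were tested only because of their oxidized libraries, and the share is not to be read against that background. Over all 38 genes the count was 14, where 10.3% of all genes above 0 in a library had them. Of the 14, Col25a1 and Col24a1 had under 10 estimated fragments in every library. The 38 include the 2 genes at 0 everywhere, which that background leaves out. In the authors' deposited table, 9 of the 38 genes were marked as significant, all higher in oxidized cells, where 1.23% of its rows were marked so in that direction. By the authors' deposited table these were Col3a1 (fold 4.14, q = 2.81e-07), Col2a1 (fold 6.19, q = 2.56e-06), Col26a1 (fold 3.07, q = 3.24e-05), Col9a1 (fold 4.01, q = 7.60e-05), Col14a1 (fold 4.19, q = 9.00e-05), Col1a2 (fold 3.15, q = 0.00201), Col23a1 (fold 2.30, q = 0.00427), Col13a1 (fold 3.03, q = 0.00919) and Col11a1 (fold 2.53, q = 0.0499). All 9 are among the 14 whose groups did not overlap. The fold in the authors' deposited table is the ratio of the group means where both are above 0, so for low genes it is larger than the log2(FPKM + 1) scale gives.

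**Figure D4:**
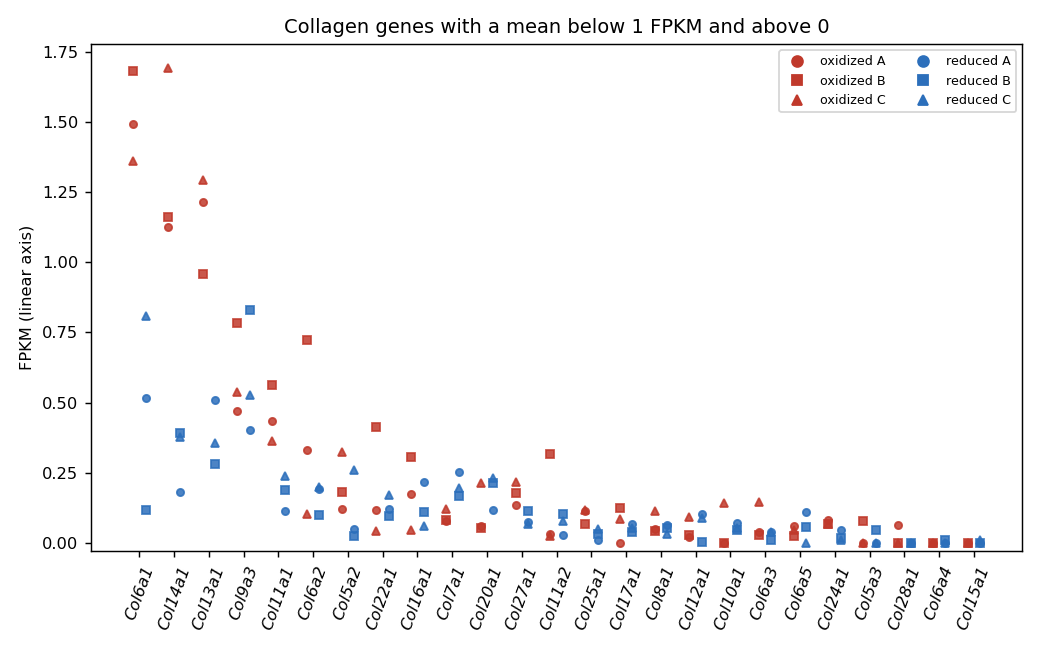
FPKM (linear axis) of the 25 collagen genes with a mean below 1 FPKM and above 0, one point per library, with oxidized libraries left of reduced ones. Col6a1, Col14a1, Col13a1, Col11a1, Col27a1, Col25a1 and Col24a1 have every oxidized library above every reduced one. Of the 38 genes, 21, including the 2 at 0, stay below 0.5 FPKM in every library.

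Chains that assemble into the same molecule were not present in equal amounts per length. The FPKM of Col1a1 was 7.18, 8.24 and 9.27 times that of Col1a2 in the oxidized libraries, against 22.3, 14.1 and 13.5 times in the reduced ones. Every oxidized ratio was below every reduced one. About 104, 122 and 156 fragments stood behind Col1a2 in the oxidized libraries, against 38.8, 37.6 and 55.7 in the reduced ones. Col3a1 and Col1a1 belong to different collagen types, and the ratio of Col3a1 to Col1a1 was higher in the oxidized libraries. It was 0.801, 0.956 and 0.586 there, against 0.270, 0.289 and 0.329 in the reduced ones. The ratio of Col9a1 to Col9a2 was 0.561, 0.440 and 1.33 in the oxidized libraries, against 0.158, 0.311 and 0.298 in the reduced ones, again without overlap. Col5a1 exceeded Col5a2 by at least 38.7 times in every library, with overlapping groups. The ratio of Col6a1 to Col6a2 also overlapped, at 2.33 to 13.5 in oxidized and 1.19 to 4.07 in reduced libraries. So did the ratios of Col9a2 to Col9a3, Col6a1 to Col6a3, Col11a1 to Col11a2 and Col8a2 to Col8a1. How many other gene pairs separate the groups was not counted.

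**Figure D5:**
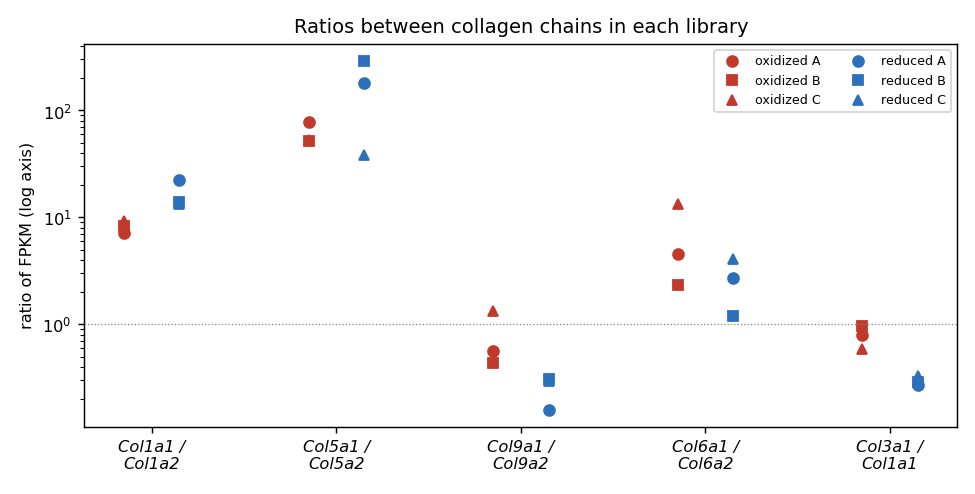
Ratio of FPKM between 2 collagen chains (log axis) in each library, with oxidized libraries left of reduced ones. The ratios of Col1a1 to Col1a2, of Col9a1 to Col9a2 and of Col3a1 to Col1a1 separate the groups. Those of Col5a1 to Col5a2 and Col6a1 to Col6a2 overlap. The ratios of Col9a2 to Col9a3, Col6a1 to Col6a3, Col11a1 to Col11a2 and Col8a2 to Col8a1, not drawn, also overlap.

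Promoters are shown for Col3a1, for Col1a2, the type I chain whose groups did not overlap, and for Col18a1, which had the smallest difference of the 11 tested. The RefSeq table (GRCm38.p6) held entries for 30 of the 38 genes. Each line gives the 150 bases before the annotated start, 5′ to 3′ on the gene's strand, and capitals mark matches to the motifs CCAAT, on either strand, TATAAA, on either strand, and GGGCGG, also on either strand.
Col3a1: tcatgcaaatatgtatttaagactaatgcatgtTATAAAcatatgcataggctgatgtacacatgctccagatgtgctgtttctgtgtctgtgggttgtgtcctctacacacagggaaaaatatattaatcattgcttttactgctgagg
Col1a2: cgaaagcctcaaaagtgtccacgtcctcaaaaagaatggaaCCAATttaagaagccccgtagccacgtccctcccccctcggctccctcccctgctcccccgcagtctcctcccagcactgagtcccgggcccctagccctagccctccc
Col18a1: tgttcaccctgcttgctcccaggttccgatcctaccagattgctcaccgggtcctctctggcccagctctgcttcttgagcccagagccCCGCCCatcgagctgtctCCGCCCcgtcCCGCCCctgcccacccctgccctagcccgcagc
They lie at chr1:45311388-45311537 (plus strand), chr6:4505468-4505617 (plus strand) and chr10:77166531-77166680 (minus strand). In these 150 bases Col3a1 held TATAAA, Col1a2 held CCAAT and Col18a1 held 3 copies of GGGCGG on the reverse strand. Over the 250 bases before each start, GGGCGG was found in 19 of 33 collagen promoters (57.6%) and in 32.7% of all 32851 promoters in the table. CCAAT was in 30.3% of the collagen promoters against 33.8% of all, and TATAAA in 15.2% against 12.4%. CCAAT and GGGCGG can share bases where they meet on opposite strands, and Col9a1, Col6a2 and Col18a1 have a second promoter in the table.

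Related genes were read from the same fit, in which 62 of 101 listed genes had a mean of 1 FPKM or more. Of these, 4 were called higher by limma and 0 lower, beside 0.517% and 0.279% of all genes tested. At an unadjusted p under 0.05, 33 were higher and 1 lower, beside 13.5% and 5.93% of all genes tested. Among the 33 are Postn, P4ha3 and Loxl1, with reduced means of 0.367, 0.777 and 0.867 FPKM. Their oxidized means were 1.71, 1.58 and 1.52 FPKM, and they were tested only because of their oxidized libraries. The counts of the 62 at that p are therefore not to be read against the shares of all genes tested. The shares of 13.5% and 5.93% stand beside each list's count at that p below, with the same limit where these genes are counted. In the fit with the population as a block 0 of the 62 were called, and 34 had an unadjusted p under 0.05 (19.2% of all genes tested). Without oxidized A and B the count was 0, with 25 at an unadjusted p under 0.05 in limma (13.3% of all genes tested). Without oxidized C it was 20, of which 19 were higher and 1 lower, beside 7.25% and 2.47% of all genes tested in that fit. The 1 lower gene was Fn1, fibronectin. The 19 higher were Colgalt1, Fbln1, Tgfbi, Sparc, P3h1, Loxl2, Plod2, P3h2, Sox9, Mrc2, Fkbp10, Mmp9, Itgb1, P3h3, Mmp14, Plod3, Crtap, Timp2 and Mmp2. This list was named after its values were seen. Only oxidized A and B remain in that fit, so its calls cannot be told apart from what sets these libraries apart. Fn1 was at 26.6, 25.7 and 81.1 FPKM in the oxidized libraries, against 72.4, 56.4 and 62.6 FPKM in the reduced ones. With all 6 libraries its groups overlapped (log2 difference -0.72, limma, adjusted p = 0.345). Among fibril-associated matrix proteins 3 of 6 were called: Tgfbi, a secreted protein that binds collagen (11.2 against 3.16 FPKM in oxidized and reduced cells, adjusted p = 0.0136), Fbln1, a fibulin (33.8 against 11.9 FPKM, adjusted p = 0.0347), and Sparc, a collagen-binding glycoprotein (132 against 56.2 FPKM, adjusted p = 0.0400). Among 6 genes of propeptide cleavage and cross-linking, Loxl2, a lysyl oxidase that cross-links collagen, was called at 12.05 against 4.13 FPKM (adjusted p = 0.0330). Pcolce, an enhancer of propeptide cleavage, had a log2 difference of 0.76 and Bmp1, the cleaving protease, 0.73, and neither passed (adjusted p = 0.131 and 0.141).

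Of 17 genes of procollagen hydroxylation and folding, 0 were called by limma. At an unadjusted p under 0.05, 11 were higher in oxidized cells and 0 lower, beside 13.5% and 5.93% of all genes tested. The 11 include P4ha3, tested only because of its oxidized libraries, so the count is not to be read against that background. Fkbp10, a chaperone of the endoplasmic reticulum, was at 21.2 against 10.7 FPKM (adjusted p = 0.0592). The prolyl hydroxylase genes P3h3 and P3h2 had log2 differences of 0.89 and 0.86 (adjusted p = 0.0853 and 0.103), and P4hb, the most abundant gene of this list, 0.21 (adjusted p = 0.492). Collagen breakdown had 0 of 9 called and 7 with an unadjusted p under 0.05. Its leading genes were the collagen uptake receptor Mrc2 (log2 difference 1.16, adjusted p = 0.0599) and the metalloproteinases Mmp14 (0.70, 0.0780) and Mmp2 (0.83, 0.0780). Of 11 genes of procollagen export 0 were called by limma, with 1 higher and 1 lower at an unadjusted p under 0.05. These were Creb3l2 (0.55, adjusted p = 0.190) and Tmem38b (-0.58, 0.149), while Creb3l1 differed by 0.56 (0.316) and Sec13 by 0.02 (0.970). Of the 3 measured receptors 0 were called and 1 had an unadjusted p under 0.05, Itgb1 (0.60, adjusted p = 0.154), beside Adgrg1 (0.40, 0.367) and Ddr1 (0.15, 0.729). Of 10 regulators 0 were called and 4 had an unadjusted p under 0.05. Sox9, which drives Col2a1 in cartilage, was at 5.27, 8.16 and 3.82 FPKM in the oxidized libraries, against 1.18, 0.753 and 2.61 FPKM in the reduced ones, with a limma adjusted p of 0.0780. Tgfb2 had a log2 difference of 0.65 (0.125), Smad3 of 0.64 (0.139) and Ccn2 of 0.19 (0.780).

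Of the type IV chains, Col4a2 was called (14.3 against 5.12 FPKM, log2 difference 1.31, adjusted p = 0.0273, 0.0665 with the population as a block and 0.108 without oxidized A and B) and Col4a1 was not (14.2 against 7.26 FPKM, 0.85, adjusted p = 0.103). Whether Col3a1 and Col4a2 differed in the size of their change was not tested.

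Markers of cell types that the embryoid bodies could hold were measured beside the collagen genes. Of 10 mesenchyme markers 6 were tested and 1 was called, Cd248, at 8.30 against 1.74 FPKM (adjusted p = 0.0167). Its adjusted p was 0.0613 with the population as a block and 0.0941 without oxidized A and B. Pdgfrb (log2 difference 0.79, adjusted p = 0.104), Twist1 (0.68, 0.246), Pdgfra (0.68, 0.265), Tcf21 (0.51, 0.499) and Vim (0.09, 0.885) did not pass. Of the 4 markers below a mean of 1 FPKM, Prrx1 averaged 1.503 against 0.458 FPKM, Meox1 0.728 against 0.274 FPKM and Thy1 0.101 against 0.0701 FPKM. The 10 markers summed to 82.0 to 157.5 FPKM in oxidized and 65.85 to 96.1 FPKM in reduced libraries. The sum was highest in oxidized C, the library in which Col1a1, Col1a2, Col3a1 and Col5a1 were highest too. Vim alone gave 93.7 FPKM of the sum in oxidized C. Pdgfra, Pdgfrb, Twist1, Prrx1, Tcf21 and Fap were also highest there, while Cd248 and Thy1 were highest in oxidized B and Meox1 in oxidized A. Fap was at 0 in every library but oxidized C, where it was at 0.0293 FPKM. Of 9 cartilage and notochord markers 1 was tested, Sox9. Their sum was 6.32 to 10.7 FPKM in oxidized and 2.31 to 4.95 FPKM in reduced libraries. Hapln1, a link protein of cartilage matrix, was at 2.16, 1.57 and 0.869 FPKM in the oxidized libraries, against 0.417, 0.361 and 0.547 FPKM in the reduced ones, without overlap. Shh averaged 0.249 against 0.0853 FPKM, also without overlap, Matn1 0.895 against 0.718 FPKM and Matn4 0.134 against 0.103 FPKM. Snorc and Noto were at 0 in every oxidized library and averaged 0.249 and 0.0698 FPKM in reduced ones. Acan was at no more than 0.0538 FPKM and Cnmd at 0 in every library. Of 10 extraembryonic endoderm markers 9 were tested and 0 called by limma. At an unadjusted p under 0.05, 6 of the 9 were higher, beside 13.5% of all genes tested. These 6 were Gata4, Gata6, Sox7, Dab2, Apoa1 and Ttr. Ttr averaged 2.22 against 0.351 FPKM, so it was tested only because of its oxidized libraries. The count of 6 is therefore not to be read against that background. The 10 endoderm markers summed to 41.1 to 51.3 FPKM in oxidized and 22.1 to 27.0 FPKM in reduced libraries. Of 8 pluripotent markers 7 were tested and 1 was called lower, Tdgf1, at 41.8 against 129 FPKM (adjusted p = 0.0323, 0.0564 with the population as a block and 0.103 without oxidized A and B). Of the 7 estimates, 6 were negative and 1 was positive, that of Nanog (log2 difference 0.35, limma, adjusted p = 0.707). Nanog was at 44.3, 49.0 and 11.5 FPKM in the oxidized libraries, against 24.2, 27.2 and 18.2 FPKM in the reduced ones. The 8 markers had a sum of 278 to 609 FPKM in oxidized and 558 to 771 FPKM in reduced libraries. Cardiac (3 tested), endothelial (4), neural crest (1), neural (2) and surface epithelial (4) markers gave 0 calls by limma. At an unadjusted p under 0.05, 4 were higher and 1 lower, beside 13.5% and 5.93% of all genes tested. The part of these cell types in the collagen values was not tested.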

How the data were processed

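Poly(A) RNA of 3 oxidized and 3 reduced libraries was read from both fragment ends after a stranded library kit, per the labels' protocols. The authors deposited 1 table of FPKM values per gene and library. In it the authors also deposited a fold and its log2, per the file headers. The fold is the ratio of oxidized over reduced means, with about 0.0001 in place of a mean of 0 (99.94% of 4928 such rows within 1%). A p-value and a q-value for each gene were deposited too, from a test those headers do not name. The submitters' processing notes list cutadapt, FastQC, HISAT2, StringTie, edgeR and mm10. Versions, and whether counting used the strand, are not given in the sources used here. Rows marked significant had a q-value of at most 0.0499 and a log2 change of at least 1, checked on the deposited columns.

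FPKM values are not counts. With transcript length taken out, 21.6% to 24.1% of low values were whole multiples of 1 step (tolerance 2%), so reads were not recovered and no count test was run; the step size gave the estimated depths, and fragments per gene are approximate.

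All genes averaging 1 FPKM or more were tested on log2(FPKM + 1) with limma 3.58.1 in R 4.3.3 (group alone, eBayes with a mean-variance trend), two-sided, with Benjamini-Hochberg adjustment over 12191 genes; adjusted p under 0.05 was called. The step was tested on simulated data. This scale understates the change of low genes.

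Oxidized and reduced cells were sorted from the same populations A, B and C, per the series' design text, and the letters in the column names were taken as these populations. Which numbered replicate in the labels each letter stands for was not settled. The block and all differences within a population rest on that reading. Between same-lettered libraries, deviations from their group mean correlated at r = -0.06, 0.07 and 0.20 within A, B and C. The population block was an alternative, as were the pseudocount, filter, scaling, variance trend and left-out libraries.

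Every collagen gene reaching 1 FPKM, and those reaching 0.5 FPKM in a library, were named with all values; from related lists the 3 smallest p-values and the most abundant gene, and marker genes were chosen after their values were seen. The genes, lists and tests were chosen with earlier results of these data known. Coordinates and transcripts are from GENCODE vM21, whose GRCm38 assembly is mm10, and all 38 gene IDs matched.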

Additional observations from a re-analysis of the deposited data

How the results depend on the processing

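Of 12191 genes, 97 were called, and this was 4 with the population as a replicate block, 1 with no filter and 4 without oxidized A and B together. The split was 63 higher and 34 lower, against 58 and 50 with median-ratio scaling and 54 and 51 with quantile normalization. The 1 oxidized library left when A and B go is assumed to vary like the others. Collagen genes called were 1 in the fit reported and 0 with the block or with no filter. With the block, limma gave 8 of 11 collagen genes an unadjusted p under 0.05, beside 2345 of all 12191 genes tested. With no filter it gave 14 of 36, beside 3327 of all 28179. Related genes called were 4, and 0 with the block or with no filter. Leaving out 1 library gave 3 to 1185 genes, 0 to 5 collagen genes and 0 to 20 related genes, with the most without oxidized C. That fit keeps only oxidized A and B, so its counts cannot be told apart from what sets these libraries apart. The collagen count was 0 without oxidized A, oxidized B, reduced A or reduced B, and 1 without reduced C. The median log2 difference of the collagen genes was 0.72, and it was 1.13 with a pseudocount of 0.1, 0.10 over 36 genes with no filter and 0.51 over 4 genes at a mean of at least 5 FPKM. Leaving out 1 library gave 0.68 to 0.91. With the filter lifted or raised a different number of genes enters, and for the other settings the cause was not tested. Col3a1 was above the threshold in 7 of 14 alternatives and positive in all 14. The block changed no other collagen call. The number of collagen genes reaching 1 FPKM was 9 to 12. Counting error limits the genes below 1 FPKM, of which 10 had under 10 estimated fragments in every library.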
